A study of Mus musculus with 5 samples.

Results

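The 10 genes described here encode antioxidant enzymes: 4 glutathione peroxidases (Gpx1, Gpx2, Gpx3 and Gpx4), 3 superoxide dismutases (Sod1, Sod2 and Sod3), catalase (Cat), thioredoxin reductase 1 (Txnrd1) and heme oxygenase 1 (Hmox1). They were taken from the deposited count table by gene symbol, and all 10 were found among its 28666 genes. All 10 also passed the filter on low counts, which left 17013 genes for testing. Their transcripts were measured by RNA sequencing in 5 libraries from whole uteri of pseudopregnant ICR females that were 6 to 8 weeks old. Whether each library came from 1 female or a pool is not stated, so n counts libraries. The aged-SP group (n = 2, replicates 1 and 4) had been caged with vasectomized C57BL/6 males aged 12 to 18 months, and the young-SP group (n = 3, replicates 1, 2 and 4) with vasectomized C57BL/6 males aged 12 to 14 weeks. Seminal plasma (SP) is the fluid of the ejaculate, and a vasectomized male delivers it without sperm, so no uterus held embryos. The uteri were collected at 3.0 days post coitum according to the methods of the study, whereas the labels give 3.5 days after caging. The dose of SP was whatever mating delivered, and nothing in the labels says how many males stood behind each group.

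Superoxide dismutases turn superoxide into hydrogen peroxide, and the peroxide is then removed by catalase in peroxisomes, by glutathione peroxidases at the expense of glutathione, and by peroxiredoxins that depend on thioredoxin. Thioredoxin reductase 1 keeps cytosolic thioredoxin reduced with NADPH, and heme oxygenase 1 breaks down heme to biliverdin, iron and carbon monoxide. Several of these genes, Hmox1 and Txnrd1 among them, are targets of NRF2, the transcription factor encoded by Nfe2l2 that responds to oxidants and electrophiles. In the uterus reactive oxygen species come from its own metabolism and from the leukocytes that enter after mating, and the lining keeps these enzymes through the cycle and early pregnancy.

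For none of the 10 enzymes did the test call a difference between uteri that received SP of aged and of young males. With edgeR's quasi-likelihood test, 0 of 10 reached an adjusted p under 0.05 together with an absolute log2 fold change over 1, against 0.147% of all tested genes. At an unadjusted p under 0.05 edgeR also gave 0 of 10, against 19.0% of all tested genes. DESeq2 called 0 of 10 (3.60% of its tested genes) and limma-voom 0 of 10 (0.159%), and neither gave an unadjusted p under 0.05 for any of the 10, against 18.1% and 18.5% of tested genes. In all 10 the values of the groups overlapped, whereas 38.8% of tested genes had both aged-SP libraries above or both below all 3 young-SP libraries. The comparison rests on 2 against 3 libraries, and the design cannot separate the age of the male from any other difference between these few libraries.

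Of the 10 enzymes 5, the 4 glutathione peroxidases and Txnrd1, are selenoproteins, which read an in-frame TGA codon as selenocysteine at the active site. Transcripts of such genes can be degraded when selenium is short, since the TGA is then read as a stop, and the tolerance to this differs between the family members. The bases around that codon are shown because they set these 5 genes apart from the other 5 and show how the peroxidases differ at their catalytic site. They are taken from the coding strand of the transcripts of GENCODE M21 (mouse build GRCm38), in lower case with the selenocysteine codon in capitals.
Gpx1: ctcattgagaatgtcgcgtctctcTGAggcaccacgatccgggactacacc
Gpx2: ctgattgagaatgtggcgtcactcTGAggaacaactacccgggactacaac
Gpx3: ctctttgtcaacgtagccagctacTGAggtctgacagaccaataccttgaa
Gpx4: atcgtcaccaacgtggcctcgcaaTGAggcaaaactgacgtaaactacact
Txnrd1: ggagacatcctccagtctggctgcTGAggt
The codon lies in exon 1 of 2 in Gpx1 (chromosome 9, 108339451 to 108339453, plus strand) and in exon 1 of 2 in Gpx2 (chromosome 12, 76795256 to 76795258, minus strand). In Gpx3 it is in exon 2 of 5 (chromosome 11, 54907256 to 54907258, plus strand), and in Gpx4 in exon 3 of 7 (chromosome 10, 80054737 to 80054739, plus strand). It is codon 47 of 201 in Gpx1, codon 40 of 190 in Gpx2, codon 73 of 226 in Gpx3 and codon 129 of 253 in the longest Gpx4 reading frame. In Txnrd1 it stands in the last of 15 exons (chromosome 10, 82896037 to 82896039, plus strand) as codon 612 of 613, so that only 1 codon follows before the stop. Gpx1 and Gpx2 were identical at 43 of the 51 bases shown, and Gpx3 shared 24 of them with either of these. Gpx4 shared 29 with Gpx1, 29 with Gpx2 and 26 with Gpx3. The reading frames of Sod1, Sod2, Sod3, Cat and Hmox1 held 0 in-frame TGA codons.

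The levels of the 10 transcripts are compared with each other in FPKM, the deposited measure that scales a count by gene length and library size. Gpx3, which encodes the secreted peroxidase, had the highest mean at 487 ± 228 FPKM (SD, n = 5). Cytosolic Gpx1 followed with 348 ± 19.9, the cytosolic copper and zinc dismutase Sod1 with 246 ± 29.5, and Gpx4, which reduces lipid hydroperoxides in membranes, with 104 ± 2.34. Cat (33.9 ± 3.89), the mitochondrial manganese dismutase Sod2 (25.0 ± 4.59), Hmox1 (19.1 ± 6.58) and Txnrd1 (16.7 ± 2.33) came next. Gpx2, the peroxidase of epithelia such as that of the gut, stood at 8.82 ± 1.59 and the extracellular dismutase Sod3 at 3.45 ± 1.36 FPKM. Except for Sod1 and Sod2, the length behind these values equals the merged exons of all transcripts of the gene in GENCODE M21. For Sod1 and Sod2 it was 646 and 3824 bases, against merged exons of 3970 and 10008 bases, and their deposited positions also differed from that annotation. The deposited length exceeded the longest protein-coding transcript of GENCODE M21 by a factor of 3.02 for Gpx2, 1.96 for Txnrd1, 1.73 for Gpx4 and 1.34 for Gpx1. It was 0.652 times that transcript for Sod2. Divided by the transcript length instead, Gpx3, Gpx1, Sod1, Gpx4 and Cat kept the first 5 places and Sod3 the last. The middle places changed to Txnrd1 (32.8 ± 4.55), Gpx2 (26.6 ± 4.80), Hmox1 (21.3 ± 7.34) and Sod2 (16.3 ± 3.00), so the order among these 4 depended on the length used.

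**Figure D1:**
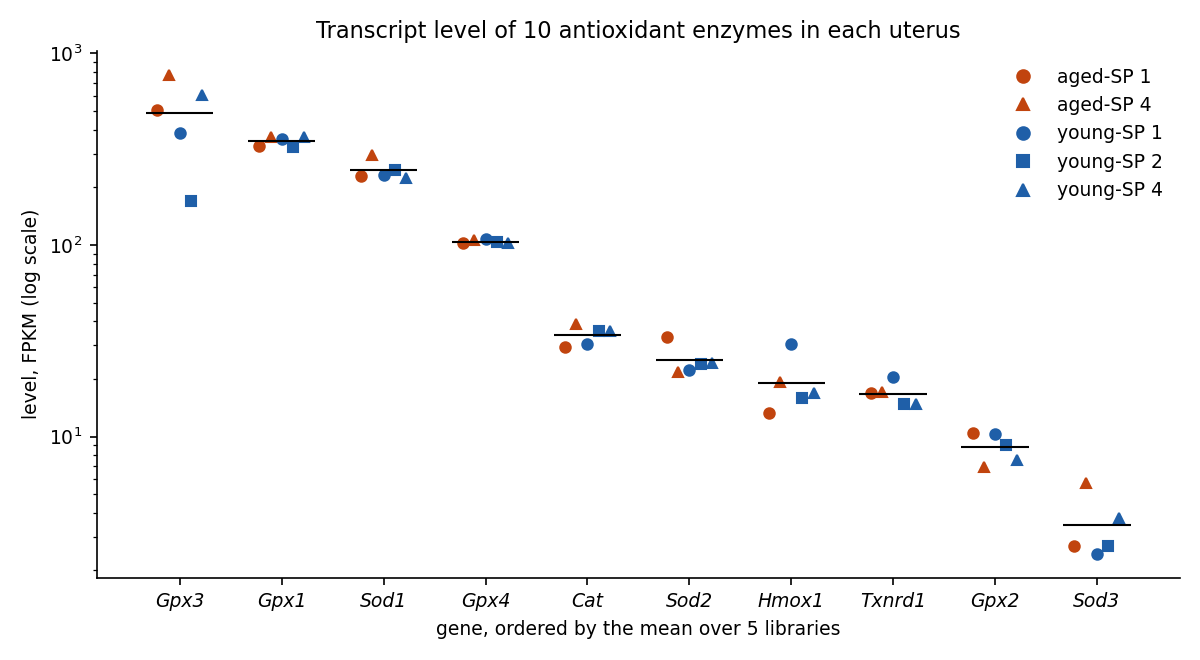
Level of each enzyme in FPKM on a log axis, with genes ordered by the mean over 5 libraries (black line) and 1 point per library, red for aged-SP and blue for young-SP. Gpx3 spreads from 169 to 774 FPKM, whereas the 5 points of Gpx4 lie between 102 and 107.

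On the FPKM scale, not every step of the order was larger than the spread over the 5 libraries. Gpx1, Sod1, Gpx4 and Cat followed each other without overlap, with ranges of 324 to 366, 224 to 296, 102 to 107 and 29.4 to 38.5 FPKM, and so did Txnrd1 (14.7 to 20.4), Gpx2 (6.91 to 10.4) and Sod3 (2.44 to 5.70). The ranges of Gpx3 and Gpx1, of Cat and Sod2, of Sod2 and Hmox1 and of Hmox1 and Txnrd1 overlapped, and in each of these pairs the first gene was higher in 4 of 5 libraries. The library that broke the top of the order was young-SP 2, where Gpx3 at 169 FPKM lay below Gpx1 and Sod1. In young-SP 1 Hmox1 lay above Cat and Sod2, at 30.3 FPKM. The 10 transcripts together summed to 1271 and 1651 FPKM in aged-SP 1 and 4, and to 1197, 947 and 1397 FPKM in young-SP 1, 2 and 4. Gpx3 took 39.8% and 46.9% of that sum in the aged-SP libraries and 31.9%, 17.9% and 43.3% in the young-SP libraries, so the differences in the sum mostly followed this gene.

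For comparisons between libraries the values are CPM, counts scaled to library size after TMM but not to gene length, and each gene position is that of the deposited table on GRCm38. Total counts lay between 15071914 and 16728601 per library. Markers of uterine muscle were abundant in every library, at a summed level of 9037 to 14220 CPM, and those of vagina and cervix summed to at most 2.0 CPM, as fits the labelled tissue. Markers of uterine glands summed to 4078 and 2930 CPM in aged-SP 1 and 4 and to 509, 53.0 and 43.0 CPM in young-SP 1, 2 and 4. In aged-SP 1 and 4 that sum was mostly Prss28 (1446 and 764 CPM) and Prss29 (2458 and 2137 CPM). Foxa2 was at 10.6 and 12 CPM there, against 8.51, 14.1 and 11.6 CPM in young-SP 1, 2 and 4. Of the 7 gland genes 4 had a log2 fold change above 0 and 3 below 0. Markers of progesterone response summed to 239 and 200.5 CPM in aged-SP 1 and 4 against 564, 650 and 944 CPM in young-SP 1, 2 and 4. For 7 of the 8 genes each aged-SP value was under every young-SP value, whereas Cyp26a1 was at 104 CPM in aged-SP 1 and at most 3.40 CPM elsewhere. Those of estrogen response summed to 9540 and 8746 CPM in the aged-SP libraries, and to 7636, 428 and 1152 CPM in the young-SP libraries, where young-SP 1 stood near the aged-SP group and only 1 of the 6 genes, C3, had groups that did not overlap. The part of the glands and of the hormonal state in the values of the enzymes was not tested. Because whole uteri were sequenced, fewer cells of a type and less RNA per cell cannot be told apart.

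Gpx4 was the steadiest of the 10. Its transcript (chromosome 10, 80047166 to 80056439) stood at 178 and 183 CPM in aged-SP 1 and 4 and at 186, 176 and 176 CPM in young-SP 1, 2 and 4. The highest library was 1.06 times the lowest, and only 0.317% of tested genes had a smaller ratio, against a median ratio of 1.53. The log2 fold change of aged-SP over young-SP was 0.01 ± 0.08 (SE), with a 95% interval from -0.20 to 0.21, a fold between 0.87 and 1.16 (edgeR, adjusted p = 0.981). Of the 50-base stretches of Gpx4, 61.7% occur also in the pseudogene Gpx4-ps2, which was itself counted at 50.4 and 51.9 against 50.5, 48.7 and 46.7 CPM, so reads of the pair may have been divided between them. The highest library of the pseudogene was 1.11 times its lowest.

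Gpx1 (chromosome 9, 108338903 to 108340343), the main cytosolic enzyme of the family, was nearly as even. It was measured at 482 and 528 CPM in the aged-SP libraries and at 521, 457 and 527 CPM in the young-SP libraries, so that aged-SP 1 lay within the young-SP range and aged-SP 4 just above it. Its log2 fold change was 0.01 ± 0.11 with an interval from -0.26 to 0.28 (adjusted p = 0.973). Gpx2 (chromosome 12, 76792333 to 76795554) was measured at 34.0 and 22.3 CPM in aged-SP 1 and 4 and at 33.3, 28.4 and 24.3 CPM in young-SP 1, 2 and 4. The aged-SP libraries were thus the highest and the lowest of the 5, and the mean difference was a log2 fold change of -0.03 ± 0.23, from -0.60 to 0.54 (adjusted p = 0.962). Of its 50-base stretches 18.9% are shared with Gpx2-ps1, which held 1 count in aged-SP 1 and 0 in the other libraries.

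Gpx3 (chromosome 11, 54902453 to 54910377) varied most. It stood at 927 and 1407 CPM in aged-SP 1 and 4 and at 698, 300 and 1103 CPM in young-SP 1, 2 and 4. Both aged-SP libraries were above young-SP 1 and 2, and young-SP 4 lay between the aged-SP values. The highest library was 4.69 times the lowest, a ratio larger than that of 91.5% of tested genes. The log2 fold change of 0.74 ± 0.52 was the largest of the 10, but its interval ran from -0.57 to 2.05, a fold between 0.67 and 4.13 (adjusted p = 0.489). Without young-SP 4 it was 1.22 and without young-SP 2 it was 0.37, and neither passed the test (adjusted p = 0.343 and 0.653). Of the markers of other organs, the steroidogenic gene Star showed the same order of libraries as Gpx3, with 30.0 and 65.3 CPM in aged-SP 1 and 4 and 22.1, 16.4 and 37.6 CPM in young-SP 1, 2 and 4, and was picked after its values were seen. Cyp11a1 and Cyp17a1, which define the steroid-producing cells of the ovary, were at 0.895 CPM or less in every library. The summed level of the ovary list was 30.5 and 66.3 CPM in the aged-SP and 17.2 to 38.2 CPM in the young-SP libraries. That sum was almost all Star and so repeats this gene. The summed level of the oviduct list, led by Ovgp1, was 112 and 151 CPM in aged-SP 1 and 4 and 96.6, 58.0 and 258.5 CPM in young-SP 1, 2 and 4. The summed level of the adipose list was 5.81 CPM in young-SP 4 and at most 0.177 CPM in the other libraries. The part of ovary, oviduct or adipose tissue in the Gpx3 values was not tested.

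**Figure D2:**
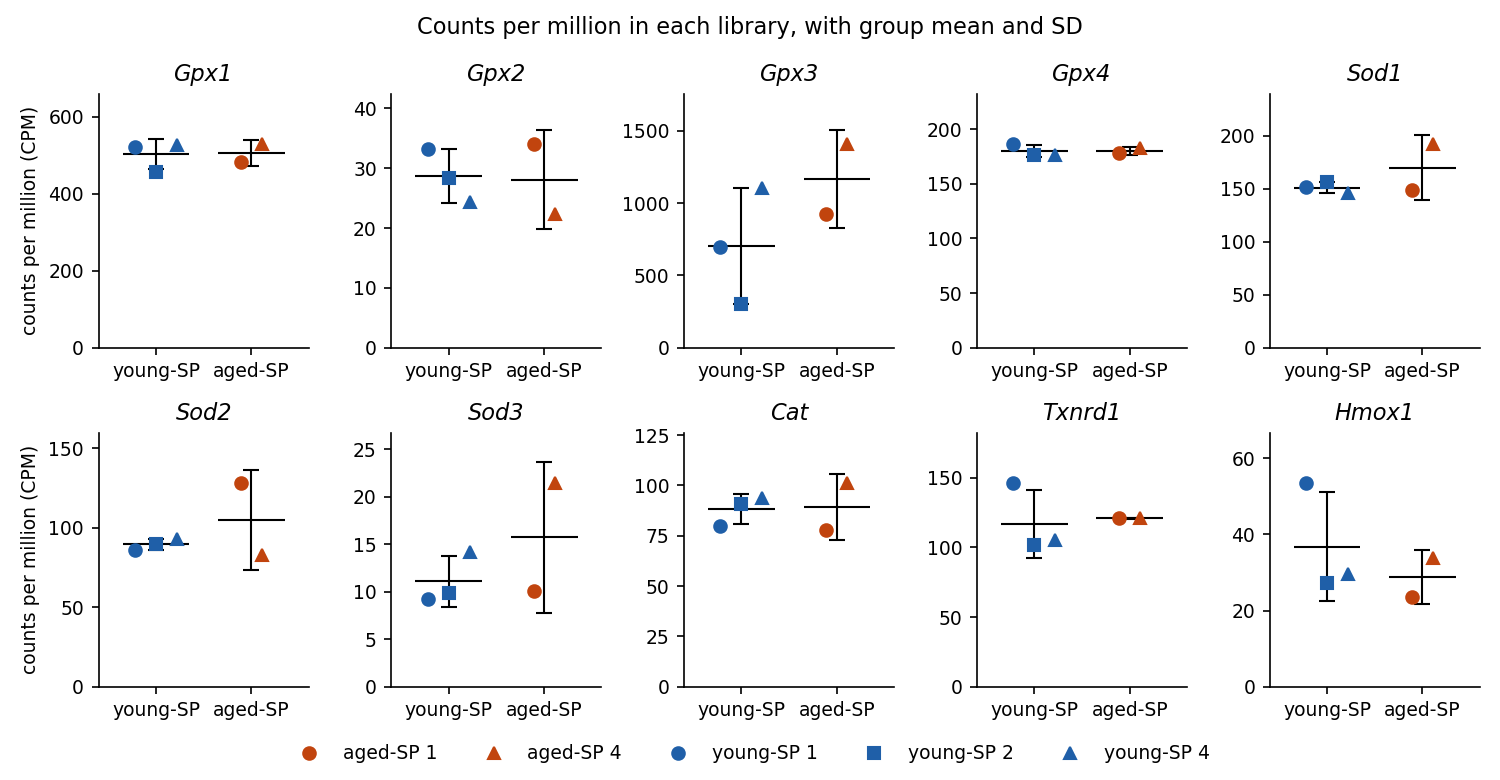
CPM of the 10 enzymes in each library, with 1 panel and 1 linear axis from 0 per gene, the horizontal line and bar giving the mean and SD of the group (young-SP, n = 3, blue; aged-SP, n = 2, red) and the symbol giving the replicate number. The groups overlap in every panel, and for Gpx2, Sod2 and Cat the 2 aged-SP points lie on either side of all 3 young-SP points.

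The superoxide dismutases differed in which aged-SP library stood out. Sod1 (chromosome 16, 90220742 to 90226322) was measured at 149 and 192 CPM in aged-SP 1 and 4 and at 152, 156 and 146 CPM in young-SP 1, 2 and 4. Only aged-SP 4 stood away from the other libraries, and the log2 fold change was 0.17 ± 0.13, from -0.15 to 0.49 (adjusted p = 0.518). It was 0.34 without aged-SP 1 (edgeR, unadjusted p = 0.0297, adjusted p = 0.363) and -0.03 without aged-SP 4. The pseudogene Gm8566 shares 23.1% of the 50-base stretches of Sod1. Sod2 (chromosome 17, 13007839 to 13018119) showed the opposite, with 128 CPM in aged-SP 1 and 83.1 in aged-SP 4 around young-SP values of 85.8, 90.0 and 92.9 CPM. Its log2 fold change of 0.23 ± 0.19 (interval -0.24 to 0.70, adjusted p = 0.536) was 0.51 without aged-SP 4 and -0.11 without aged-SP 1, so that the choice of library turned its direction. Without aged-SP 4 the unadjusted p of Sod2 was 0.00758 and the adjusted p 0.196 (edgeR).

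Sod3 (chromosome 5, 52363791 to 52371418) had the lowest level of the 10, with 147 to 334 counts per library. It stood at 10.1 and 21.4 CPM in aged-SP 1 and 4 and at 9.19, 9.81 and 14.2 CPM in young-SP 1, 2 and 4. Aged-SP 4 was the highest library and aged-SP 1 lay among the young-SP libraries. The log2 fold change was 0.51 ± 0.37, with an interval from -0.41 to 1.43 (adjusted p = 0.496). It was 0.95 without aged-SP 1 (unadjusted p = 0.0288, adjusted p = 0.359) and -0.13 without aged-SP 4 (adjusted p = 0.875). As in Gpx3, the 2 highest libraries were aged-SP 4 and young-SP 4.

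Cat (chromosome 2, 103453849 to 103485160) also had the aged-SP libraries at both ends. It was measured at 77.7 and 101 CPM in aged-SP 1 and 4, against 79.7, 90.9 and 93.6 CPM in young-SP 1, 2 and 4. The log2 fold change was 0.02 ± 0.15, from -0.34 to 0.39 (adjusted p = 0.954). Among all tested genes, 6.67% had the 2 aged-SP libraries as the highest and the lowest of the 5, and 3 of the 10 enzymes did, namely Gpx2, Sod2 and Cat. Aged-SP 1 was the higher of the pair in Gpx2 and Sod2 and the lower in Cat. In these 3 genes the aged-SP libraries thus differed from each other more than the young-SP libraries did.

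Txnrd1 (chromosome 10, 82833951 to 82897712) was 121 CPM in both aged-SP libraries and 146, 102 and 105 CPM in young-SP 1, 2 and 4. The aged-SP values lay between those of the young-SP group, and the log2 fold change was 0.04 ± 0.18, from -0.40 to 0.48 (adjusted p = 0.916). Hmox1 (chromosome 8, 75093621 to 75100589) stood at 23.6 and 33.7 CPM in aged-SP 1 and 4 and at 53.4, 27.3 and 29.7 CPM in young-SP 1, 2 and 4. Young-SP 1 was the highest library, and the other 4 lay between 23.6 and 33.7 CPM in both groups. The log2 fold change of -0.36 ± 0.34 (interval -1.22 to 0.50, adjusted p = 0.607) was -0.01 without young-SP 1. For Txnrd1 the same omission gave 0.21 (unadjusted p = 0.0678, adjusted p = 0.258).

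Young-SP 1, the library with the most Hmox1 and Txnrd1 transcripts, was also the one with the highest summed markers of macrophages, neutrophils and red cells. Markers of macrophages, cells that take up red cells and express heme oxygenase 1, summed to 982 CPM there, to 479 and 688 CPM in young-SP 2 and 4 and to 589 and 940 CPM in aged-SP 1 and 4. Csf1r and Cd68 were highest in aged-SP 4 (160 and 58.8 CPM), and the other macrophage markers in young-SP 1. Markers of neutrophils summed to 219 CPM in young-SP 1 and to between 31.0 and 103 CPM in the other libraries. In young-SP 1 that sum was mostly S100a9, Csf3r and S100a8 (102, 78.7 and 26.9 CPM). Mpo and Retnlg were lowest there (1.69 and 8.63 CPM), Ly6g was highest in aged-SP 4 (1.22 CPM) and Camp was at most 0.125 CPM. Red cell markers, mostly globins, summed to 219 CPM in young-SP 1, 182 CPM in aged-SP 4 and 83.3 to 98.0 CPM in the other 3. None of the 8 macrophage markers, 7 neutrophil markers or 6 red cell markers was at 0 in every library. Slc7a11, the cystine importer that feeds glutathione synthesis and another NRF2 target, was at 38.3 CPM in young-SP 1 and between 3.43 and 10.9 CPM elsewhere, and was picked after its values were seen. Other NRF2 targets, also picked after their values were seen, went both ways. Osgin1 and Ugdh were highest in young-SP 1 (16.3 and 73.9 CPM). Nqo1 was at 8.38 CPM there, against 12.2 and 12.8 CPM in young-SP 2 and 4. Abcc1 was highest in young-SP 4 (100 CPM) and Abcc4 in aged-SP 1 (107 CPM). The part of NRF2, macrophages, neutrophils and red cells in the values of Hmox1 and Txnrd1 was not tested.

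**Figure D3:**
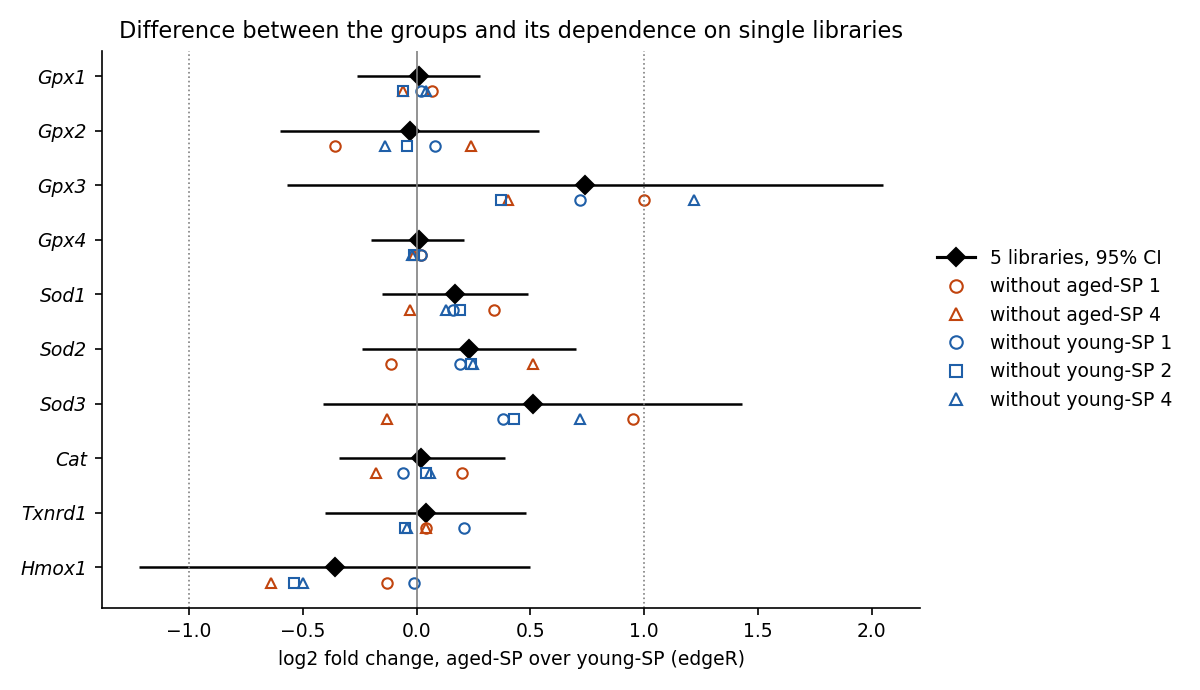
Log2 fold change of aged-SP over young-SP for each enzyme (edgeR), with the value over 5 libraries as a black diamond, its 95% interval as a line, and below it the value with each library left out in turn (open symbols). All 10 intervals include 0, the dotted lines mark a log2 fold change of 1 in either direction, and leaving out an aged-SP library moves the value across 0 for Gpx1, Gpx2, Gpx4, Sod1, Sod2, Sod3 and Cat.

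The precision differed among the 10 enzymes. The 95% interval stayed within a 2-fold difference in either direction for 7 of them, as it did for 61.9% of tested genes, and within 1.5-fold for 5 (Gpx1, Gpx4, Sod1, Cat and Txnrd1), as for 36.7% of tested genes. For Gpx3, Sod3 and Hmox1 a difference of over 2-fold lay inside the interval and was not excluded by these libraries. The median log2 fold change over the 10 was 0.03 and the median absolute log2 fold change 0.11, against 0.01 and 0.24 over all tested genes. Aged-SP 4 was the highest library for 5 of the 10 (Gpx1, Gpx3, Sod1, Sod3 and Cat), against 21.1% of tested genes. Young-SP 2 was the lowest for 4 (Gpx1, Gpx3, Gpx4 and Txnrd1), against 19.7%.

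The wider redox system was described by lists that hold 142 further genes, of which 138 were in the table and 133 were tested. Of these, 68 had a log2 fold change above 0 and 65 below 0, with a median log2 fold change of 0.00. Only 1 of the 133 was called by edgeR (0.147% of all tested genes) and 1 by limma-voom (0.159%). DESeq2 gave a p-value to all 138 genes in the table. It called 9 of them, against 3.60% of the 17536 genes to which it gave an adjusted p. The 9 were Dio3, Ggt1, Ggt5, Gsta4, Gstm2, Maff, Maob, Me1 and Txnip. In 54 of the 133 the groups did not overlap (26 with aged-SP above and 28 with aged-SP below), against 38.8% of all tested genes (19.5% and 19.3%). At an unadjusted p under 0.05 there were 31 (17 higher and 14 lower), against 19.0% of all tested genes (9.62% and 9.36%). Their median absolute log2 fold change was 0.23, close to the 0.24 of all tested genes.

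The gene that was called was Gsta4, a glutathione S-transferase that conjugates the lipid peroxidation product 4-hydroxynonenal. It fell from 63.7, 67.2 and 59.9 CPM in young-SP 1, 2 and 4 to 21.5 and 26.9 CPM in aged-SP 1 and 4. The groups were far apart, with a log2 fold change of -1.39 ± 0.13 (edgeR, adjusted p = 0.0484). The call sat at the threshold: the adjusted p was 0.0513 with DESeq2 size factors and 0.0511 with library size alone, and among the fits with 1 library left out only the one without young-SP 1 kept it, while DESeq2 gave an adjusted p of 7.8e-14. Of the 21 tested glutathione S-transferases, 2 were higher and 5 lower at an unadjusted p under 0.05 (edgeR), against 9.62% and 9.36% of all tested genes. Gstm2, of the mu class, was at 64.7 and 60.4 CPM against 151, 395 and 475 CPM (adjusted p = 0.107), and Gstt2, of the theta class, at 36.5 and 58.3 against 25.0, 23.4 and 22.7 CPM (adjusted p = 0.107). For Gstm2, 9.36% of the 50-base stretches occur in other genes.

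Among the relatives of the 10 enzymes, both other glutathione peroxidases in the table, Gpx7 and Gpx8 of the endoplasmic reticulum, had aged-SP values below all young-SP values. Among all tested genes 19.3% did. Both had an unadjusted p under 0.05 without being called, and 9.36% of all tested genes were lower at that p (edgeR). Gpx8 was at 103 and 122 CPM against 165, 140 and 153 CPM (log2 fold change -0.44, edgeR unadjusted p = 0.0135, adjusted p = 0.160), and Gpx7 at 20.1 and 27.8 against 32.8, 40.1 and 34.6 CPM (-0.58, unadjusted p = 0.0208, adjusted p = 0.188). The median absolute log2 fold change of the pair was 0.51, against 0.24 over all tested genes. Of the 6 peroxiredoxins 0 reached an unadjusted p under 0.05 with edgeR, against 19.0% of all tested genes. Prdx2 came nearest, at 127 and 150 against 179, 180 and 155 CPM (adjusted p = 0.268), and Prdx5 had a log2 fold change of 0.07 (adjusted p = 0.860). The opposite gene Trmt112 covers 19.1% of the exon bases of Prdx5. Atox1, the copper chaperone, had a log2 fold change of -0.34 (unadjusted p = 0.0294, adjusted p = 0.216) and Ccs, which loads copper into Sod1, one of -0.19 (adjusted p = 0.501).

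In the thioredoxin list the largest difference was in Txnip, which encodes the protein that binds and inhibits thioredoxin. It was measured at 816 and 1076 CPM in aged-SP 1 and 4 and at 377, 343 and 430 CPM in young-SP 1, 2 and 4. The groups did not overlap and the log2 fold change was 1.30 ± 0.16, but the adjusted p was 0.0674 by edgeR, whereas DESeq2 gave 2.16e-09. The antisense gene Gm15441 covers 19.4% of its exon bases, and with a kit that does not mark strand their reads cannot be told apart. Of 12 genes of glutathione synthesis and recycling, 2 were higher at an unadjusted p under 0.05 (edgeR), against 9.62% of all tested genes. They were the gamma-glutamyl transferases Ggt1 and Ggt5, which cleave extracellular glutathione. Ggt1 was at 10.3 and 4.48 CPM against 1.19, 1.0 and 1.13 CPM (adjusted p = 0.0734), and Ggt5 had a log2 fold change of 1.35 (adjusted p = 0.141).

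**Figure D4:**
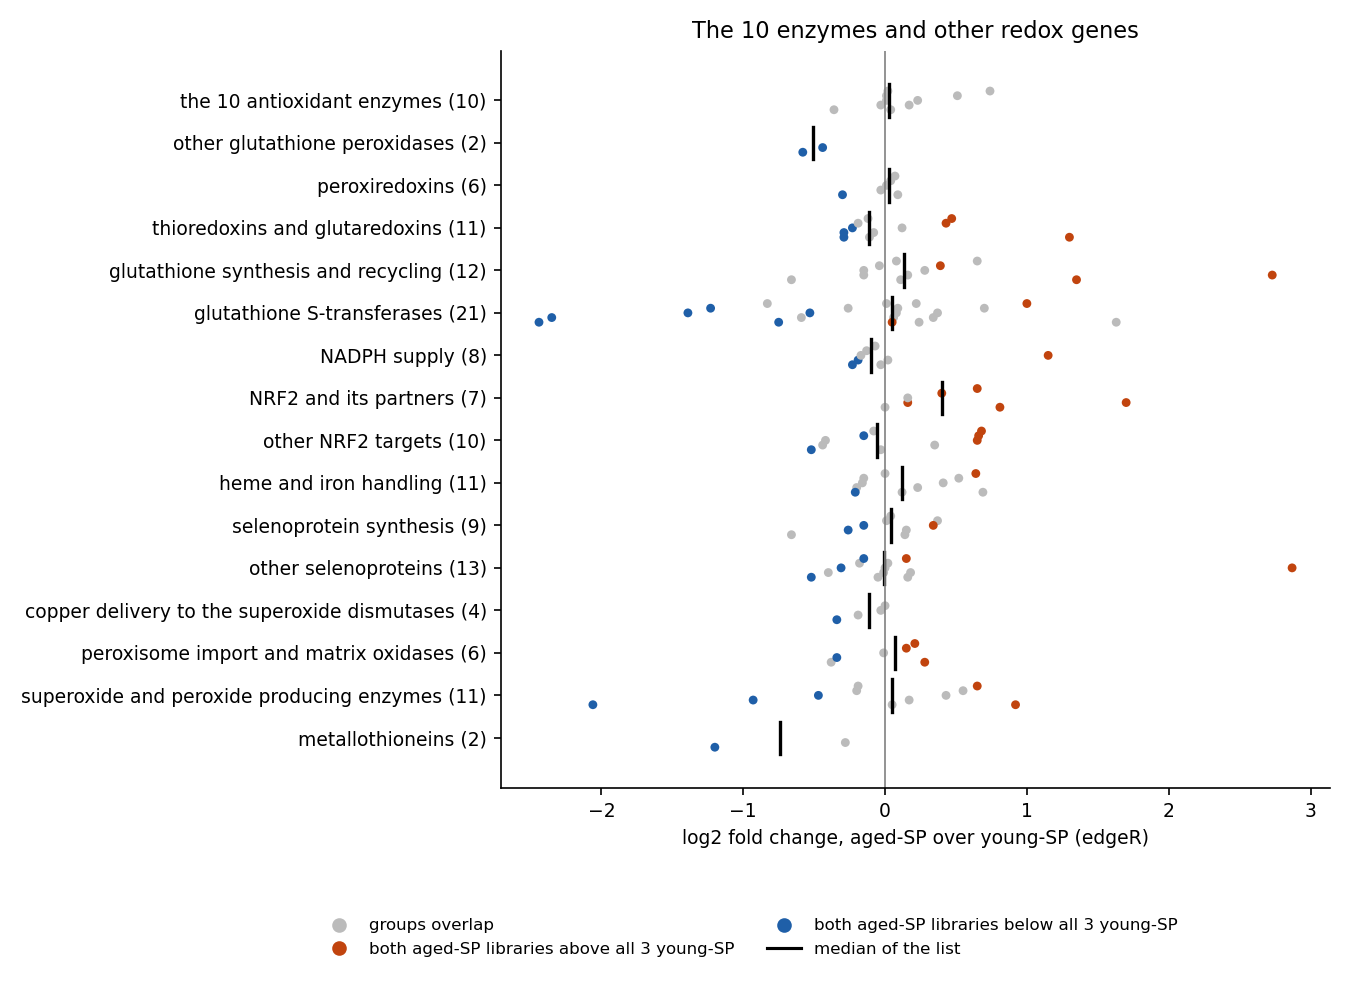
Log2 fold change of aged-SP over young-SP (edgeR) for the 10 enzymes and for each list of other redox genes, 1 point per tested gene with the number tested in brackets and a black bar at the median of the list. Colour marks genes whose groups do not overlap (red, aged-SP above; blue, aged-SP below), and all 10 enzymes are grey, which stands for overlap.

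The list of NRF2, its inhibitor and its partners held 7 genes. Among them Nfe2l1, which encodes a factor separate from NRF2, had a log2 fold change of 0.16 (edgeR, adjusted p = 0.46). All 7 had a log2 fold change of at least 0.00, with a median of 0.40, and 4 were higher at an unadjusted p under 0.05 (9.62% of all tested genes were), but 0 was called by edgeR or limma-voom and only Maff by DESeq2. Bach1, a repressor that competes with NRF2 and is known for holding Hmox1 down, was at 77.1 and 81.8 CPM in the aged-SP and at 53.2, 50.6 and 48.5 CPM in the young-SP libraries (log2 fold change 0.65, adjusted p = 0.0734). The small Maf protein Maff was at 15.3 and 8.76 against 3.94, 3.19 and 4.01 CPM (1.70, adjusted p = 0.0829), and the other 2 of the 4 were Mafg (0.40, adjusted p = 0.100) and Mafk (0.81, adjusted p = 0.114). Nfe2l2 and Keap1, which encode NRF2 itself and its inhibitor, had log2 fold changes of 0.16 (adjusted p = 0.501) and 0.00 (adjusted p = 0.994); these 2 and the pair before them were named after their values were seen. Among 10 other NRF2 targets, 3 were higher and 1 lower at an unadjusted p under 0.05 (edgeR), against 9.62% and 9.36% of all tested genes. The autophagy receptor gene Sqstm1 was at 484 and 557 against 319, 314 and 353 CPM (adjusted p = 0.0767), with 17.3% of its exon bases under the opposite gene Mrnip, and the epoxide hydrolase gene Ephx1 had a log2 fold change of 0.68 (adjusted p = 0.106).

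Enzymes that make or supply the reactive species and reducing power gave a mixed picture. Of 11 tested genes that produce superoxide or peroxide, 1 was higher and 2 were lower at an unadjusted p under 0.05 (edgeR), against 9.62% and 9.36% of all tested genes. The lower pair were the monoamine oxidases, which release hydrogen peroxide at the outer mitochondrial membrane. Maob was at 32.8 and 40.0 CPM in the aged-SP and at 100, 190 and 167 CPM in the young-SP libraries (log2 fold change -2.06, edgeR adjusted p = 0.0734, DESeq2 1.96e-09), and Maoa at 62.2 and 64.1 against 94.4, 149 and 118 CPM (-0.93, adjusted p = 0.113). Of 8 genes of NADPH supply only the malic enzyme gene Me1 reached an unadjusted p under 0.05 (edgeR), against 19.0% of all tested genes. Me1 had a log2 fold change of 1.15 (adjusted p = 0.150), and 32.8% of its 50-base stretches occur in other genes. Taldo1, of the pentose phosphate pathway, had one of -0.19 (adjusted p = 0.414).

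Of the genes that handle heme, iron, selenium and metals 0 was called by edgeR, and DESeq2 called Dio3. Among 11 heme and iron genes, 1 reached an unadjusted p under 0.05, against 19.0% of all tested genes. It was Slc48a1, a transporter that moves heme out of lysosomes, at 105 and 116 against 67.5, 69.3 and 76.6 CPM (adjusted p = 0.0760). Ftl1, the ferritin light chain, had a log2 fold change of 0.41 (adjusted p = 0.360), and 90.6% of its 50-base stretches occur in other genes. Of 9 genes listed for selenoprotein synthesis or for selenium transport and binding, 1 reached an unadjusted p under 0.05 (edgeR). It was Selenbp1 (0.34, adjusted p = 0.237), which encodes a selenium-binding protein and not an enzyme of selenoprotein synthesis. Selenbp1 shares 52.3% of its stretches with Selenbp2. Pstk, a kinase of the selenocysteine tRNA, was at -0.26 (adjusted p = 0.355), with 58.8% of its exon bases under the opposite gene Ikzf5. Among 13 other selenoproteins there were 1 higher and 2 lower at an unadjusted p under 0.05 (edgeR), against 9.62% and 9.36% of all tested genes. Selenof was at -0.31 (adjusted p = 0.170). Dio3, a deiodinase, was at 3.20 and 27.8 against 2.06, 1.54 and 2.74 CPM (adjusted p = 0.177), so that its difference rested on aged-SP 4. The peroxisome genes Pex13 (-0.34) and Pex5 (0.21) and the metallothioneins Mt1 (-0.28) and Mt3 (-1.20) had adjusted p-values of 0.273, 0.303, 0.624 and 0.334. Glrx5, a mitochondrial glutaredoxin, was at -0.23 (adjusted p = 0.239).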

How the data were processed

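Uterine RNA libraries were made by the authors with a kit that does not mark strand, and reads were aligned with HISAT2 2.1.0; Bowtie2 2.2.3 and HTSeq 0.6.0 are also named in the submitters' processing notes, with no role. The deposited count of each gene and library is a raw count. The deposited FPKM values equal these counts divided by gene length and library total. Columns with the authors' fold changes and p-values were not used, and 0 per-sample columns were left unused. A further young-SP sample that the study excluded was not analysed here.

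Samples were grouped by their labels. Genes were kept by filterByExpr, and groups were compared with glmQLFit and glmQLFTest of edgeR 4.0.16 (R 4.3.3) after TMM scaling (factors 0.990 to 1.02), with Benjamini-Hochberg adjustment over 17013 genes. All p-values are two-sided, and intervals cover 95%. Genes were called at an adjusted p under 0.05 where the log2 fold change also exceeded 1 in size. DESeq2 1.42.0, limma 3.58.1, other scalings and filters, a replicate block and each library left out were the alternatives. A p-value measures only the spread between these libraries (biological coefficient of variation 25.1%). With 1 aged-SP library left, that library was assumed to vary like the others.

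Shared stretches are the 50-base runs of a transcript that occur in a transcript of another gene in GENCODE M21, counted on either strand. Besides the 10 enzymes, the named genes were those called in each redox list and otherwise the 2 with the smallest unadjusted p. The 10 genes, the lists and this rule were chosen with earlier results of these data known. Gpx5, Gpx6, Gsta1 and Mt2 are not in the table and were not analysed here.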

Additional observations from a re-analysis of the deposited data

How the results depend on the processing

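The count of antioxidant enzymes called was 0 of 10 under every alternative, with adjusted p-values between 0.196 and 1. Of their recomputed log2 fold changes 111 kept their direction and 19 changed sign, and none of these fits called any of the 10. With library size alone Gpx1 was at -0.0025 and Gpx4 at -0.01. With each library left out in turn the log2 fold changes ranged from -0.06 to 0.07 for Gpx1, -0.36 to 0.24 for Gpx2, -0.02 to 0.02 for Gpx4, -0.03 to 0.34 for Sod1, -0.11 to 0.51 for Sod2, -0.13 to 0.95 for Sod3, -0.18 to 0.20 for Cat, -0.05 to 0.21 for Txnrd1, -0.04 to 0.22 for Prdx5 and -0.68 to 0.03 for Mt1. Among the other redox genes 1 was called, against 0 with DESeq2 size factors, 0 with library size alone, 9 with DESeq2's Wald test, 5 without a filter on low counts, 0 to 9 with each library left out and 31 at an unadjusted p under 0.05. Over all tested genes 25 were called, against 632 with DESeq2, 203 without a filter, 1 to 578 with each library left out and 3228 at an unadjusted p under 0.05. The highest of these left-out counts came without young-SP 1; the cause was not tested. The order of the 10 mean levels was the same with each library left out, and by TPM, which uses the same lengths and so cannot change the order within a library. With the length of the longest protein-coding transcript, an alternative chosen after seeing the data, 6 of the 10 genes kept their place.

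Only replicate numbers 1 and 4 are shared by the groups, and nothing says that they mark a shared origin. Deviations from the group means correlated at 0.15 and 0.14 between same-numbered libraries and at -0.14 and -0.15 between the others. With 2 aged-SP libraries the deviations of one are the exact opposite of the other's. The negative values were therefore fixed by the positive ones and give no separate contrast. With the replicate block 0 of the 10 enzymes, 0 other redox genes and 2 of all tested genes were called, Gpx3 reached an unadjusted p of 0.015, and the log2 fold changes of Gpx1 (-0.06), Gpx4 (-0.01), Txnrd1 (-0.03) and Prdx5 (-0.03) changed sign.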
